A study of Arabidopsis thaliana with 4 samples.

Results

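The genes described here encode the nuclear-made proteins of the light-harvesting antenna and of the photosystems in Arabidopsis thaliana. They are the rows of the deposited table whose locus code is one of 43 listed codes, out of 32823 rows in all. Of the 43 genes, 20 encode antenna proteins (14 LHCB and 6 LHCA), 12 encode subunits of photosystem I (PSA) and 11 encode subunits or close partners of photosystem II (PSB). Expression was read in 4 RNA libraries made from seedlings of the ecotype Col-0. WT control and WT heat came from wild-type seedlings, and miR164OE control and miR164OE heat from transgenic seedlings that overexpress the microRNA miR164. All seedlings grew at 22 °C with 16 h of light and 8 h of darkness. The heat-treated seedlings were 5 days old when they were moved to 35 °C, where they stayed for 5 days. The sources used here give neither the age of the control seedlings at harvest nor the promoter of the miR164 transgene, the number of transgenic lines or the number of plants pooled.

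Photosystem II and photosystem I are the pigment-protein complexes of the thylakoid membrane in which light drives electron transport from water to ferredoxin. LHCB proteins form the antenna of photosystem II, and LHCA proteins form the antenna belt of photosystem I. The reaction-centre proteins are encoded in the plastid, whereas the antenna proteins and most peripheral subunits are encoded in the nucleus and imported. In leaves their transcripts are among the most abundant of the nucleus and are known to respond to light, sugars and plastid signals.

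Each group holds 1 library, so no difference below has a replicate check, no p-value was computed, and every difference compares libraries. Values are FPKM, a fragment count scaled to transcript length and to the mapped fragments of the library, and differences are log2(FPKM + 1) in one library minus that in the other, a scale that understates the change of low rows. Rows whose 4 libraries averaged 1 FPKM or more were counted, and a difference of at least 1 on this scale, 2-fold, was called. Wherever 4 values follow each other, WT comes before miR164OE and, within each genotype, control before heat. Summed FPKM of the table was 1901841, 1136254, 1983185 and 1065963. On a transcript of 1 kb, 1 fragment was worth about 1.99, 1.75, 2.28 and 1.21 FPKM, an estimate read from the lowest values. The number of sequenced fragments is not stated. All 3 precursor genes of miR164 had 0 FPKM throughout, which leaves the overexpression label unchecked. As a check of the tissue, 5 of 5 mesophyll markers were above 0 in every library, with summed FPKM from 185 to 340.3, and 6 of 6 epidermis and guard cell markers in at least 1, with sums from 17.9 to 33.6. Of 8 root markers 3 were above 0 in at least 1 library, with summed FPKM from 6.78 to 9.26. SHR, at 2.05, 3.62, 1.38 and 5.90 FPKM, and SCR, at 7.21, 3.16, 4.68 and 1.49 FPKM, were above 0 in every library. PHT1-1 was above 0 in miR164OE control only, at 0.726 FPKM. The root markers EXPA7, COBL9, CASP1, MYB36 and NRT2.1 were at 0 in all libraries. The seed storage markers CRU1, CRU3 and SESA2 were at 0 as well. In seedling RNA, fewer cells of a type and less RNA per cell cannot be told apart.

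The values of these genes carry a limit that touches every result below. The 3 rows with the highest mean FPKM of the whole table lie on the opposite strand of LHCB1.5, PSAG and PSAE1. The own row of these genes held between 0.011% and 0.116% of the FPKM of the opposite row. Own rows of the 43 genes together made up 0.114%, 0.0580%, 0.0859% and 0.0809% of all FPKM. The library kit was strand-specific per the labels, the strand setting of the counting is not stated, and whether own rows follow the transcripts of their genes was not tested. Values are reported as listed for the own row of each gene unless a row on the opposite strand is named.

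All 43 genes were present in the table, and 41 passed the row minimum. LHCA5 (AT1G45474), an antenna protein that helps to join photosystem I to the NDH complex, was listed at 3.31, 0, 0 and 0 FPKM. PSAH1 (AT3G16140), one of the pair of genes for subunit H of photosystem I, was listed at 1.405, 0, 0 and 0 FPKM. Both rest on fewer than 2 estimated fragments in total and were left out of all counts. By the same estimate 24 of the 43 genes had at least 40 fragments over the 4 libraries, 19 had fewer, and 5 of these had under 10. The levels spanned a wide range within each library. Median FPKM of the 43 genes was 25.1 and 7.04 in WT, control before heat, and 23.3 and 14.6 in miR164OE.

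The highest row in both controls was LHCA4 (AT3G47470), an antenna protein of photosystem I. It was listed at 264, 59.5, 169 and 86.8 FPKM. PSBR (AT1G79040), a small photosystem II protein that stabilizes the oxygen-evolving side, was highest in both heat libraries. Its values were 223, 108, 152 and 103 FPKM. The lowest of the genes that passed the row minimum was LHCB4.3 (AT2G40100), with 0, 2.40, 0 and 1.68 FPKM, a value of about 2 fragments in each heat library. Between the controls the order of the 43 levels was close, with Spearman's rho of 0.90 across genes. Between WT control and WT heat rho was 0.77. In miR164OE it was 0.90 between control and heat. These coefficients are descriptions across genes, which share library and depth and are not independent replicates.

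**Figure D1:**
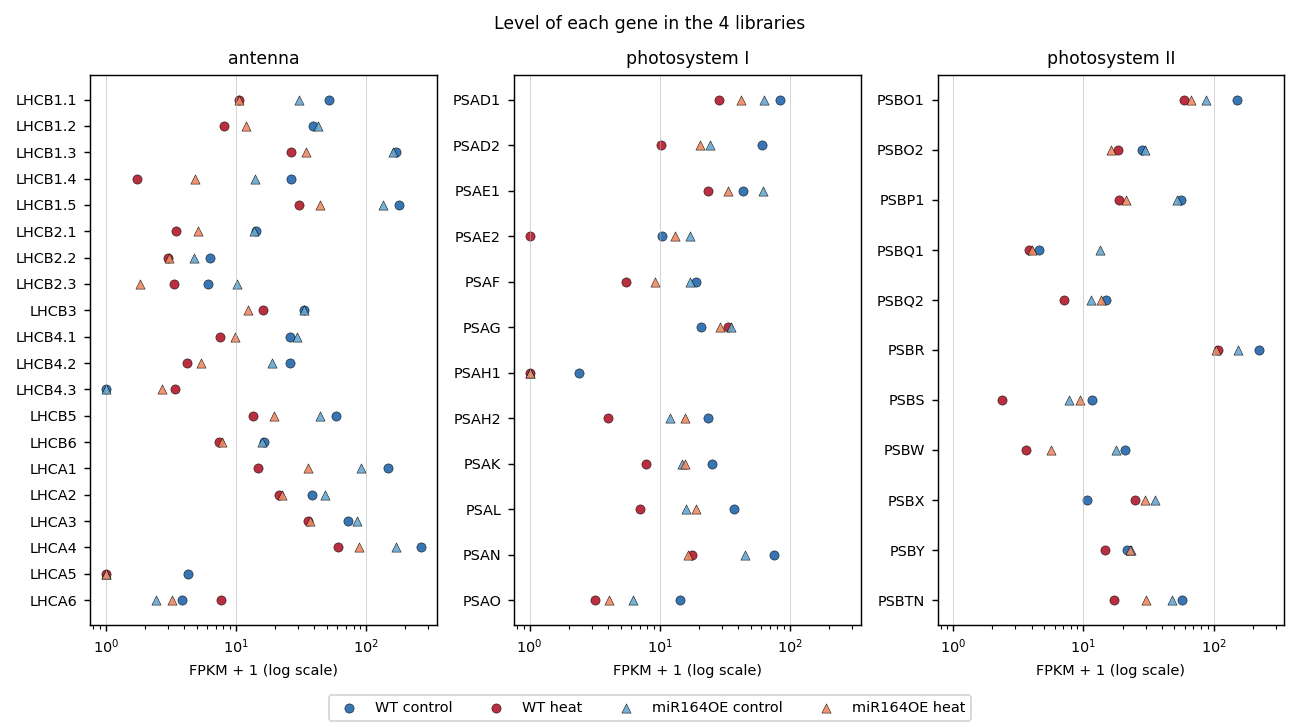
FPKM + 1 (log axis) of each of the 43 genes in the 4 libraries, 1 point per library, in panels for the antenna, photosystem I and photosystem II; circles are WT, triangles miR164OE, blue control and red or orange heat. Most heat points of the antenna panel lie left of both control points, while in the photosystem I panel several miR164OE heat points lie among the control points.

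Summed by class, all 3 classes were lower after heat in both genotypes, and the antenna differed most. The 20 antenna rows summed to 1165, 259.9, 931.8 and 341 FPKM, which was 4.48 times lower in WT heat and 2.73 times lower in miR164OE heat than in the control of the same genotype. The 12 photosystem I rows summed to 406, 131, 303 and 207 FPKM, lower by 3.10 times in WT and 1.46 times in miR164OE. The 11 photosystem II rows summed to 590.1, 268, 469 and 313 FPKM, lower by 2.2 and 1.5 times. These sums rest on an estimated 747, 195, 526 and 365 fragments for the antenna, 198, 69.5, 124 and 157 for photosystem I and 326, 161, 219.8 and 278 for photosystem II. When nuclear rows were set to a common sum, the photosystem I and photosystem II sums of miR164OE turned direction, with heat-to-control ratios of 1.32 and 1.28, whereas the antenna ratio was still below 1 at 0.703. In WT the rescaled ratios were 0.383 for the antenna, 0.555 for photosystem I and 0.781 for photosystem II.

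Ratios between classes within a library do not depend on the scaling of that library. Antenna FPKM per photosystem II FPKM was 1.97 before and 0.969 after heat in WT, and 1.99 and 1.09 in miR164OE. Both heat libraries thus held about the same ratio, well under that of the controls. Photosystem I per photosystem II was 0.687 and 0.488 in WT, and 0.645 and 0.662 in miR164OE. LHCB per LHCA was 1.22 and 0.928 in WT, and 1.38 and 0.881 in miR164OE. The antenna share of the summed FPKM of all 43 genes was 53.9%, 39.4%, 54.7% and 39.6%.

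**Figure D2:**
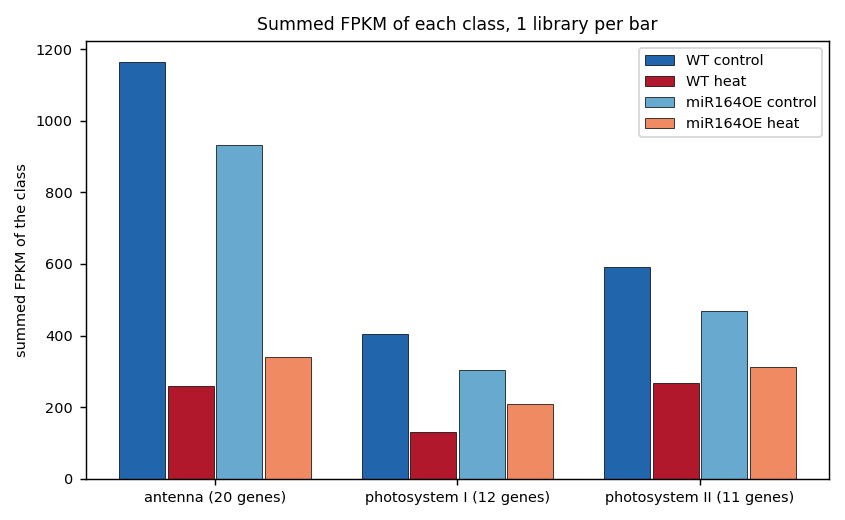
Summed FPKM (linear axis from 0) of the antenna, photosystem I and photosystem II genes, with 1 bar for each library and no error bar because each group has 1 library. The antenna bars are 1165 high for WT control, 259.9 for WT heat, 931.8 for miR164OE control and 341 for miR164OE heat.

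How these genes stood after prolonged heat was asked first in wild type. At least 2-fold lower in WT heat were 31 of the 41 counted genes, against 21.7% of all 10488 rows tested. At least 2-fold higher were 3, against 29.8% of all rows, and 1 of the 3, LHCB4.3, passed the row minimum only through its heat values. The median difference of the 41 genes was -1.75, and that of all rows tested was 0. By class, 15 of 19 antenna genes, 9 of 11 photosystem I genes and 7 of 11 photosystem II genes were lower. Class medians were -2.06, -2.09 and -1.07. Scaling nuclear rows to a common sum left 21 genes lower and 4 higher, against 13.2% and 43.4% of all rows. It moved the median of all rows to 0.70. Against that shift the genes stayed 1.71 below the median of all rows. With the 100 highest rows left out of the scaling, 25 were lower and 3 higher, against 18.5% and 33.2% of all rows. The genes then lay 1.73 below the median of all rows. Among all rows, 57.8% of the calls were higher as deposited and 76.7% after scaling to a common sum.

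LHCB1 and LHCB2 proteins, with LHCB3, form the trimers of the major antenna complex LHCII. LHCB1.3 (AT1G29930), the highest LHCB row by mean, had 169, 25.5, 159.8 and 33.7 FPKM, a level 6.64 times lower after heat in WT. LHCB1.5 (AT2G34420), which lies next to LHCB1.4 on chromosome 2, had 178, 29.6, 134 and 43.1 FPKM. LHCB1.1 (AT1G29920) had 51.0, 9.47, 29.2 and 9.55 FPKM and LHCB1.2 (AT1G29910), its neighbour on chromosome 1, 37.9, 7.04, 41.7 and 11.0 FPKM. In all 4 of these genes both heat values lay below both control values. LHCB1.4 (AT2G34430) had the largest difference of the 41 genes in WT, -3.93, with 25.6, 0.744, 13.0 and 3.81 FPKM, but its WT heat value is worth less than 1 estimated fragment. The 5 LHCB1 rows together had 462, 72.4, 378 and 101 FPKM, of which LHCB1.3 and LHCB1.5 made up 36.7% and 38.5% in WT control and 35.2% and 40.9% in WT heat.

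The LHCB1 genes are close copies, and how the authors' counting divided fragments among them is not stated. Coding sequences of LHCB1.1, LHCB1.2 and LHCB1.3 were 95.7% to 96.4% identical to each other, and those of LHCB1.4 and LHCB1.5 92.45%. LHCB2.1 and LHCB2.2 were 91.6% identical. Windows of 100 bases found in exactly the same form in another gene of the set made up 4.44% of the exons of LHCB1.1, 4.23% of LHCB1.5, 3.30% of LHCB1.4, 3.27% of LHCB1.3 and 1.51% of LHCB1.2. For LHCB2.2 and LHCB2.1 the shares were 12.4% and 9.87%, and for the other 36 genes 0%. The last 90 coding bases before the stop codon are shown for the 5 LHCB1 genes from the RefSeq assembly TAIR10.1, to show where the copies differ. Capitals mark the 15 positions at which the 5 genes are not all the same.
LHCB1.1: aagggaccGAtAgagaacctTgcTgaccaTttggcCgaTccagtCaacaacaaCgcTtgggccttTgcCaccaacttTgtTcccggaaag
LHCB1.2: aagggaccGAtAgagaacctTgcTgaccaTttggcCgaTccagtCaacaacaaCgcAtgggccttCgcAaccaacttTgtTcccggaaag
LHCB1.3: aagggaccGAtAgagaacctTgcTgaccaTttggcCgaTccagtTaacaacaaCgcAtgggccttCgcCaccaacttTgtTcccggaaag
LHCB1.4: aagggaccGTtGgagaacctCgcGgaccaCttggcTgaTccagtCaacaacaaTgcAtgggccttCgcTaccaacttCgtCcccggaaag
LHCB1.5: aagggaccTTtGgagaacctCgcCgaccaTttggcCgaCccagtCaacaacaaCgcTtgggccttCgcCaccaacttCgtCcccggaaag

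Low rows made up the LHCB2 group. LHCB2.1 (AT2G05100) had 13.3, 2.44, 12.7 and 4.09 FPKM and a WT heat difference of -2.06. LHCB2.2 (AT2G05070) had 5.31, 1.99, 3.76 and 2.07 FPKM, and LHCB2.3 (AT3G27690) had 5.13, 2.36, 9.21 and 0.814 FPKM, each on under 13 estimated fragments over the 4 libraries. The heat values of each LHCB2 gene lay below its control values, and the LHCB2 sums of 23.7, 6.79, 25.7 and 6.97 FPKM were alike between genotypes. LHCB3 (AT5G54270), the third kind of trimer protein, had 32.0, 15.0, 32.2 and 11.5 FPKM. Its difference in WT, -1.04, was the smallest called one among the LHCII genes.

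The minor antenna proteins LHCB4, LHCB5 and LHCB6 connect the trimers with the photosystem II core. LHCB5 (AT4G10340) had 57.7, 12.4, 43.3 and 18.5 FPKM, and LHCB4.2 (AT3G08940) had 24.96, 3.19, 17.8 and 4.40 FPKM. LHCB4.1 (AT5G01530) had 25.1, 6.57, 28.1 and 8.83 FPKM. LHCB6 (AT1G15820) was listed at 15.3, 6.398, 14.7 and 6.77 FPKM, close to the limit of a call in both genotypes. These 4 genes were at least 2-fold lower in WT heat. The third LHCB4 gene, LHCB4.3, is known as an isoform of its own linked to long-term stress and high light. It was listed at 0 in both controls and called higher in both heat libraries, on about 2 fragments each. At a mean of 1.02 FPKM it passed the row minimum only through its heat values, so these calls cannot be read as a result.

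Among the LHCA genes, LHCA1 (AT3G54890), which pairs with LHCA4 in the belt, had the largest difference of any gene with at least 40 estimated fragments. It was listed at 146, 13.6, 90.7 and 34.5 FPKM, 10.7 times lower in WT heat, on an estimated 93.6, 9.89, 50.6 and 36.2 fragments. LHCA4, with the values given above, was 4.44 times lower. LHCA2 and LHCA3, the other pair of the belt, differed less, by -0.85 and -1.01. LHCA2 (AT3G61470) had 37.2, 20.3, 46.8 and 21.7 FPKM. LHCA3 (AT1G61520) had 70.9, 34.7, 84.4 and 36.1 FPKM. In each of the 4 belt genes both heat values lay below both control values, and the WT heat differences of LHCA1 and LHCA4 were larger than those of LHCA2 and LHCA3. LHCA6 (AT1G19150), known like LHCA5 for linking photosystem I to NDH, was listed at 2.83, 6.68, 1.41 and 2.19 FPKM, on 8.91 estimated fragments, and was at least 2-fold higher in WT heat.

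In photosystem I, PSAD and PSAE form the stromal ridge on which ferredoxin docks, and PSAF with the lumenal PSAN guides plastocyanin. PSAD1 (AT4G02770) had 82.7, 27.5, 62.0 and 41.4 FPKM, and its copy PSAD2 (AT1G03130) had 60.1, 9.26, 23.3 and 19.5 FPKM. For PSAN (AT5G64040) the values were 74.8, 16.8, 44.3 and 15.4 FPKM. In all 3 both heat values lay below both control values, and PSAN was the photosystem I gene called lower in both genotypes, with differences of -2.09 and -1.46. PSAF (AT1G31330) had 18.1, 4.54, 16.1 and 8.22 FPKM. PSAE1 (AT4G28750) had 42.9, 22.6, 61.6 and 32.4 FPKM and stayed just inside 2-fold, with -0.90 in WT. PSAE2 (AT2G20260), its copy, was listed at 9.48, 0, 16.1 and 12.0 FPKM, that is at 0 in WT heat only, on 13.2 estimated fragments in all.

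The membrane subunits PSAG, PSAH, PSAK, PSAL and PSAO sit at the edge of photosystem I, and PSAH, PSAL and PSAO take part in docking LHCII. PSAL (AT4G12800) had 36.1, 6.02, 14.8 and 18.1 FPKM, with WT heat the lowest library. PSAH2 (AT1G52230) had 22.7, 2.97, 11.0 and 14.7 FPKM and PSAK (AT1G30380) 24.3, 6.79, 13.8 and 14.6 FPKM, with the same order of WT libraries. In PSAL, PSAH2 and PSAK the miR164OE heat value was not below the miR164OE control value. PSAO (AT1G08380) had 13.3, 2.17, 5.26 and 3.04 FPKM. PSAG (AT1G55670) did not share the pattern and was listed at 19.7, 32.4, 34.3 and 28.1 FPKM, 1.65 times as high in WT heat as in WT control.

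In photosystem II, PSBO, PSBP and PSBQ are the extrinsic proteins around the manganese cluster that splits water. PSBO1 (AT5G66570), the main PSBO gene, had 149, 58.7, 86.9 and 66.2 FPKM, a WT heat difference of -1.33. Its copy PSBO2 (AT3G50820) had 27.0, 17.4, 28.9 and 15.3 FPKM. PSBP1 (AT1G06680) had 55.4, 17.8, 51.4 and 20.1 FPKM, with both heat values below both controls. PSBQ2 (AT4G05180) had 13.9, 6.11, 10.5 and 12.5 FPKM and PSBQ1 (AT4G21280) 3.54, 2.83, 12.3 and 3.02 FPKM. PSBS (AT1G44575), the sensor of lumen acidity in the dissipation of excess light, was listed at 10.7, 1.38, 6.74 and 8.48 FPKM. WT heat stood alone as its low library, on about 1.42 estimated fragments.

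The low-mass photosystem II proteins PSBR, PSBW, PSBX, PSBY and PSBTN did not move as one group. PSBW (AT2G30570), which helps to hold the complexes together as supercomplexes, had 20.02, 2.64, 16.9 and 4.61 FPKM. PSBTN (AT3G21055) had 56.6, 16.1, 47.0 and 29.3 FPKM, and PSBR, with the values above, differed by -1.04. All 3 were at least 2-fold lower in WT heat. PSBY (AT1G67740) was listed at 20.7, 13.6, 22.3 and 21.9 FPKM, within 2-fold. PSBX (AT2G06520) was higher in WT heat, with 9.65, 23.7, 34.3 and 28.6 FPKM, and WT control was its low library. It was the 1 gene with at least 40 estimated fragments that was called higher in WT heat.

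The comparison of miR164OE heat with miR164OE control asked the same of the overexpressing seedlings. At least 2-fold lower were 19 of the 41 genes, against 17.2% of all rows tested, and 1 was higher, against 32.5%. The higher one, LHCB4.3, passed the row minimum only through its heat values. The median difference of the 41 genes was -0.91, and that of all rows 0.25. The antenna again gave most of the calls, with 15 of 19 genes lower, against 1 of 11 in photosystem I and 3 of 11 in photosystem II. Class medians were -1.41, -0.40 and -0.55. Scaling nuclear rows to a common sum left 2 genes lower and 6 higher, against 7.88% and 52.6% of all rows. The median of all rows was then 1.09 and that of the genes -0.016, 1.11 below it, and the medians of photosystem I and photosystem II turned to 0.48 and 0.39. With the 100 highest rows left out of the scaling, 15 were lower and 1 higher, against 13.2% and 38.8% of all rows. The genes then lay 1.15 below the median of all rows. Of the calls among all rows, 65.4% were higher as deposited and 87.0% after scaling to a common sum.

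LHCB2.3 had the largest difference in miR164OE, -2.49, on about 1 fragment in the heat library. Among genes with at least 40 estimated fragments the largest were LHCB1.3, at -2.21, and LHCB1.2, at -1.83. LHCA1 differed by -1.37, 2.63 times lower, and LHCA4 by -0.95, just inside 2-fold. LHCB5 and LHCB4.1 differed by -1.18 and -1.57. The photosystem I gene called lower was PSAN, and the photosystem II genes were PSBP1, at -1.31, PSBQ1, at -1.73, and PSBW, at -1.68. PSAD2, at -0.25, and PSBO1, at -0.39, stayed within 2-fold here.

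The heat comparisons of the genotypes share no library, so the calls can be set side by side. In both genotypes 16 genes were at least 2-fold lower, against 7.54% of all rows tested, namely all 5 LHCB1 genes, LHCB2.1, LHCB3, LHCB4.1, LHCB4.2, LHCB5, LHCB6, LHCA1, LHCA3, PSAN, PSBP1 and PSBW. Lower in WT and within 2-fold in miR164OE were 15 genes, against 9.72% of all rows, of which 8 encode photosystem I subunits. Lower in miR164OE and within 2-fold in WT were 3, LHCB2.3, LHCA2 and PSBQ1, 7.32% of the 41 against 7.37% of all rows. No gene was called in opposite directions. Among all rows 4.48% were lower in WT and higher in miR164OE, and 2.28% the reverse. LHCB4.3, which passed the row minimum only through its heat values, was called higher in both, against 15.1% of all rows. LHCA6 and PSBX were higher in WT and within 2-fold in miR164OE, against 12.4% of all rows.

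The difference of the heat responses, miR164OE minus WT, was at least 1 in size for 15 of the 41 genes. It was positive for 12 (29.3%), near the 27.7% of all rows tested, and negative for 3 (7.32%), against 22.3%. A positive value means that heat against control stood higher in miR164OE than in WT. In photosystem I it was positive for 6 of 11 genes (median 1.54), in the antenna for 3 of 19 (median 0.44) and in photosystem II for 3 of 11 (median 0.54). All rows tested had a median of 0.06. Values were 2.99 for PSAE2, 2.96 for PSAH2, 2.68 for PSAL and 2.33 for PSAD2. Each of these rows rests on under 60 estimated fragments over the 4 libraries, and no spread between plants was measured. Among genes with at least 40 estimated fragments 5 of 24 were positive and 1 negative, against 12.2% and 14.4% of all 3027 rows with as many fragments. Across the 41 genes the heat differences of WT and miR164OE had a Pearson's r of 0.41 and a Spearman's rho of 0.29, and across all rows tested 0.34 and 0.35. These are descriptions across genes.

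**Figure D3:**
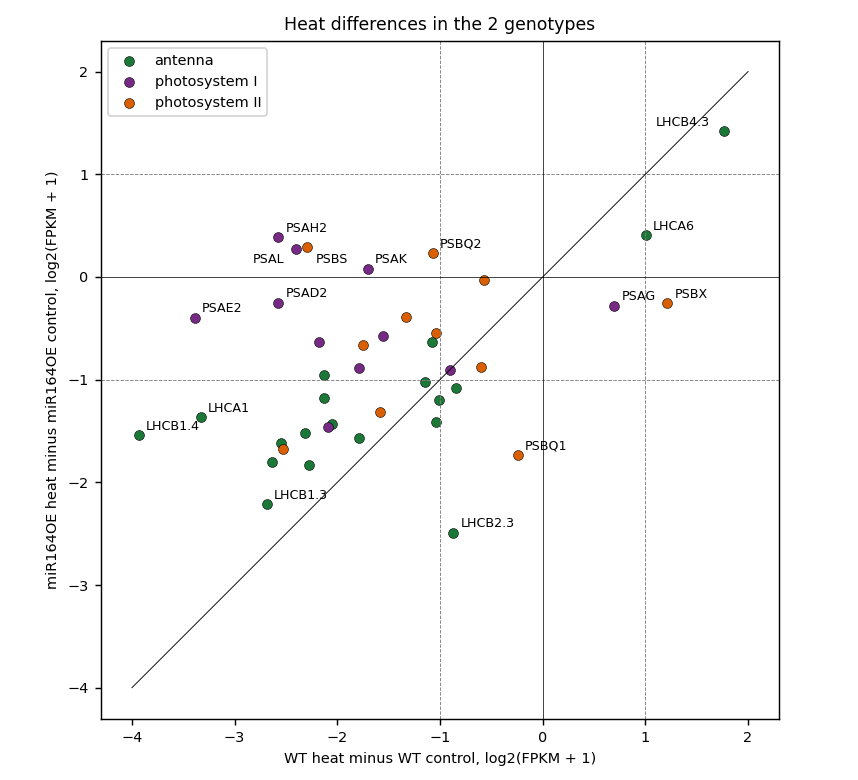
Heat difference on the log2(FPKM + 1) scale in WT (horizontal axis) and in miR164OE (vertical axis) for the 41 counted genes, coloured by class; dashed lines mark 2-fold and the diagonal marks equal differences. Antenna genes gather at the lower left, and PSAH2, PSAL, PSAK, PSBS and PSBQ2 lie left of 0 in WT and slightly above 0 in miR164OE.

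Between genotypes without heat, 3 of 41 genes were at least 2-fold lower in miR164OE control than in WT control, against 18.9% of all rows. A further 2 were higher, against 16.8%. The lower ones were PSAD2, PSAL and PSAO, at -1.33, -1.23 and -1.19. The higher ones were PSBX and PSBQ1, at 1.73 and 1.56. Among genes with at least 40 estimated fragments, 2 of 24 (8.33%) were lower and 1 (4.17%) higher. Of all 3027 rows with as many fragments 7.96% were lower and 7.53% higher, near the shares of the genes. No antenna gene was called, with differences from -0.93 for LHCB1.4 to 0.73 for LHCB2.3. Class medians were -0.08 for the antenna, -0.74 for photosystem I and -0.23 for photosystem II. Summed FPKM in miR164OE control was 0.800 times that of WT control for the antenna, 0.746 times for photosystem I and 0.795 times for photosystem II. The miR164OE control library also enters the heat comparison of miR164OE, so the low control values of PSAL and PSAD2 stand in both.

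After heat 7 genes were at least 2-fold higher in miR164OE than in WT, against 19.6% of all rows, and 1 was lower, against 13.6%. Higher were PSAE2, PSBS, PSAH2, LHCB1.4, PSAL, LHCA1 and PSAK, at 3.70, 1.99, 1.98, 1.47, 1.45, 1.28 and 1.01. LHCA6 was lower, at -1.27. The 7 genes are 17.1% of the 41, near the share of all rows. The median of the 41 genes was 0.39. After scaling to a common sum it was 0.49, and the median of all rows was 0.10. With this scaling 9 genes were higher and 1 lower, against 24.3% and 13.7% of all rows. LHCA1, with 13.6 against 34.5 FPKM in miR164OE, and PSAL were the called genes with at least 40 estimated fragments. Summed FPKM was 1.31, 1.58 and 1.17 times as high in miR164OE heat for the antenna, photosystem I and photosystem II.

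**Figure D4:**
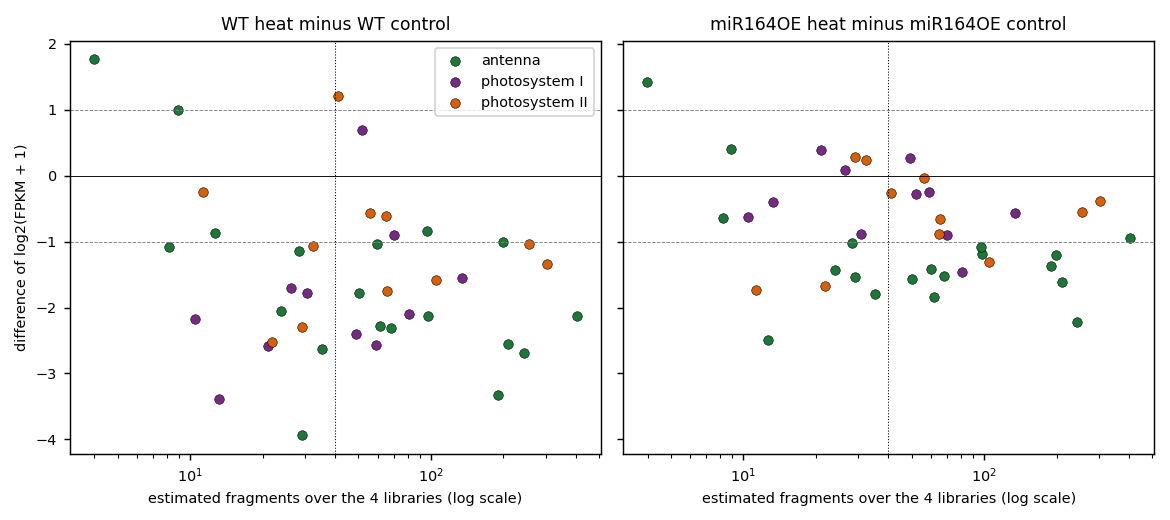
Heat difference (log2(FPKM + 1)) of the 41 counted genes against the estimated number of fragments over the 4 libraries (log axis), in WT on the left and miR164OE on the right; the dotted line marks 40 fragments and dashed lines 2-fold. Right of the dotted line 18 of 24 genes in WT and 12 of 24 in miR164OE lie at or below -1. Of all rows with as many fragments 19.4% and 20.3% did.

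Rows on the opposite strand of some of the genes were read as well. Whether they follow the transcripts of these genes was not tested. In the RefSeq annotation 16 of the 43 genes overlap an exon of a gene on the other strand, and for 5 of them such a row had a mean over 100 FPKM. Opposite LHCB1.5 (TAIR10, chromosome 2, 14522524 to 14523568) lies the long noncoding RNA row AT2G08665, with 1045 of its 1047 bases over the exon of LHCB1.5. It was listed at 158697, 72862, 199133 and 69274 FPKM, the highest mean of the table. Heat differences were -1.12 in WT and -1.52 in miR164OE, beside -2.55 and -1.61 for the own row. The own row thus made up 0.112%, 0.0406%, 0.0673% and 0.0622% of the opposite row.

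Opposite PSAG (chromosome 1, 20802670 to 20803449) the row AT1G55673, with all 479 bases over PSAG, was listed at 171972, 52342, 182750 and 40225 FPKM. Its heat differences of -1.72 and -2.18 went against the 0.70 of the own row in WT and exceeded its -0.28 in miR164OE. Opposite PSAE1 (chromosome 4, 14202758 to 14204061) the row AT4G28755, with 263 of 285 bases over PSAE1, was listed at 164547, 38249, 173586 and 27964 FPKM, and its differences were -2.10 and -2.63. In these 3 rows both heat libraries lay below both controls, and the difference was larger in miR164OE than in WT. Among the own rows of these 3 genes, only that of LHCB1.5 had the opposite order of genotypes, at -2.55 in WT and -1.61 in miR164OE. PSAE1 had -0.90 and -0.91, nearly alike, and PSAG 0.70 and -0.28. Of 11 counted photosystem I genes 9 had the opposite order, and PSAG and PSAE1 were not among them.

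Other opposite rows overlap a gene in part only. AT1G05207, a long noncoding RNA with 143 of 358 bases over LHCB6, had 2452, 886, 2922 and 905 FPKM and differences of -1.47 and -1.69, beside -1.14 and -1.02 for LHCB6. AT3G16130, with 693 of 1879 bases over PSAH1, had 1679, 659, 2219 and 606 FPKM. AT1G52240, which shares 174 of 2094 bases with PSAH2, had 57.3, 15.4, 66.1 and 11.2 FPKM, with differences of -1.83 in WT and -2.46 in miR164OE, while PSAH2 itself had -2.58 and 0.39. The rows opposite LHCB6, PSAH1 and PSAH2 were lower after heat in both genotypes. Between the control libraries these 6 opposite rows differed by 0.08 to 0.40.

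**Figure D5:**
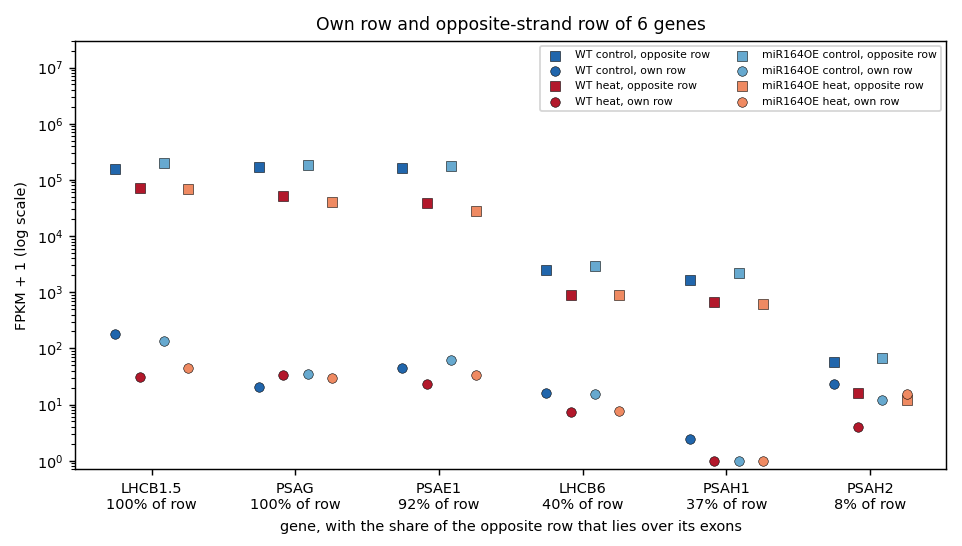
FPKM + 1 (log axis) of the own row (circles) and of the row on the opposite strand (squares) for 6 genes in the 4 libraries, coloured by library; the axis label gives the share of the opposite row that lies over the exons of the gene. For LHCB1.5, PSAG and PSAE1 the squares lie between 27964 and 199133 FPKM and the circles below 200 FPKM.

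Since the antenna genes were lower together, their promoters were described. Windows of 250 bases before the annotated start were taken from the RefSeq assembly TAIR10.1, and 19 of the 43 overlap another gene. They were searched on both strands for the G-box CACGTG, the I-box GATAAG, the motif CCAATC known from promoters that GLK transcription factors bind, and the TATA-box TATAAA. No match of one motif overlapped a match of another. CCAATC was found in 10 of 20 antenna promoters (50%), in 0 of 12 of photosystem I and in 1 of 11 of photosystem II, against 10.2% of 27443 promoters of protein-coding nuclear genes. The G-box was found in 9 of the 43 (20.9%), against 6.49% of all, and the I-box in 9, against 12.3%. For the TATA-box the count was 19 of 43 (44.2%), against 47.4% of all. None of the 4 motifs was found in 11 of the windows. A match is a run of letters and says nothing of binding.

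The promoters are shown for LHCA4, LHCB4.1 and LHCB1.5, antenna genes with CCAATC that were lower after heat. PSAL is shown too, which was 2-fold lower in WT heat and not in miR164OE heat. LHCA4 was likewise not 2-fold lower in miR164OE heat, at -0.95. LHCB1.1, LHCB1.2, LHCB1.4, LHCB3, LHCB5 and LHCB6 hold no CCAATC and were lower in both genotypes. PSAH2, with the calls of PSAL, holds the G-box, the I-box and the TATA-box. Whether any motif goes with the heat differences was not tested. Capitals mark matches of the 4 motifs on either strand, and each sequence runs 5′ to 3′ up to the base before the start. LHCA4 lies on the minus strand with its window at chr3:17495034-17495283, and has CCAATC or its reverse complement 144 and 48 bases before the start and a G-box at 88. LHCB4.1 lies on the plus strand (chr5:208616-208865), with CCAATC or its reverse complement at 194 and 35 bases and a G-box at 74. LHCB1.5 lies on the minus strand (chr2:14523569-14523818), with CCAATC at 89 and TATAAA at 31. PSAL lies on the plus strand (chr4:7521007-7521256) and holds none of the 4.
LHCA4: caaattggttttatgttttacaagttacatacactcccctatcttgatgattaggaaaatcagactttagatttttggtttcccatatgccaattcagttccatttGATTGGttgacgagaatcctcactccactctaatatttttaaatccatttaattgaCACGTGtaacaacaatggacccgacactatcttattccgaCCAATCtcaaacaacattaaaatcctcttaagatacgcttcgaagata
LHCB4.1: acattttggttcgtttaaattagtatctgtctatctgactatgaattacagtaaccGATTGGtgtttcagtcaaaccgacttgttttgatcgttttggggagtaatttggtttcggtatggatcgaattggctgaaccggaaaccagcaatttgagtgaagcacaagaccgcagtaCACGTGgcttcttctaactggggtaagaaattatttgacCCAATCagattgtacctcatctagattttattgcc
LHCB1.5: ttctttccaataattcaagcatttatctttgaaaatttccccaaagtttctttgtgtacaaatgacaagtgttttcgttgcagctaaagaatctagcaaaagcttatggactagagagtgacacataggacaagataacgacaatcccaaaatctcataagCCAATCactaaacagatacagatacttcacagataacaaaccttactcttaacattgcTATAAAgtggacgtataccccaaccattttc
PSAL: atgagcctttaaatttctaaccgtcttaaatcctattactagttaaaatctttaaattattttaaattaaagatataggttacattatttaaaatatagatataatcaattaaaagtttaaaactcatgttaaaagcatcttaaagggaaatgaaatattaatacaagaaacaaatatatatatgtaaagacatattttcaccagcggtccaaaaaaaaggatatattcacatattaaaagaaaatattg

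Other nuclear genes of photosynthesis were counted in the same way. Each list count in this and the following paragraphs is to be read beside the shares of all rows tested. In WT heat 21.7% of all rows were lower and 29.8% higher, and in miR164OE heat 17.2% and 32.5%. The lists are short, and no list was tested against these shares. Of 13 counted genes for electron carriers and the ATP synthase, 3 were at least 2-fold lower and 1 higher in WT heat (median -0.42). In miR164OE heat 1 was lower and 4 higher (median 0.05). The 3 of 13 lower in WT heat and the 4 of 13 higher in miR164OE heat are near the shares of all rows. PETC, the Rieske protein of the cytochrome b6f complex, followed the antenna, with 15.5, 2.83, 16.1 and 3.83 FPKM. FD2, the main leaf ferredoxin, had 8.39, 8.87, 1.96 and 11.9 FPKM, low in miR164OE control. PGRL1A, of cyclic electron flow, was higher in both heat libraries, at 1.45, 6.69, 1.39 and 4.68 FPKM. Import and insertion factors of the antenna (CPSRP43, CPSRP54, ALB3, LTD) gave no call in either genotype among 4 counted genes, and LTD, the most abundant, had 105, 76.5, 60.1 and 75.2 FPKM.

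Among 14 counted genes of photosystem II assembly and repair, 3 were lower and 4 higher in WT heat, and 1 lower and 2 higher in miR164OE heat (medians -0.62 and -0.06). PSB33 had 10.4, 1.13, 5.58 and 4.69 FPKM, and DEG1, a lumenal protease, 4.76, 4.22, 3.85 and 0 FPKM. LPA2 had 3.73, 0, 5.46 and 2.55 FPKM. Of the state transition genes STN7, STN8 and TAP38, STN7, the kinase that phosphorylates LHCII, was called lower in both genotypes, with 4.18, 1.57, 2.39 and 0 FPKM. These STN7 values are worth about 4.46, 1.90, 2.22 and 0 estimated fragments. Of 5 counted early light-induced and one-helix genes, OHP1 was listed at 6.06, 0, 5.70 and 0 FPKM, ELIP1 at 0, 7.53, 3.29 and 5.47 FPKM and OHP2 at 0, 2.59, 5.50 and 0 FPKM. Estimated fragments were 1.60, 0, 1.31 and 0 for OHP1 and 0, 1.22, 1.99 and 0 for OHP2. In WT heat 2 of these 5 were lower and 3 higher, in miR164OE heat 2 and 2. LIL3:2, at 0 in both controls, passed the row minimum only through its heat values. OHP1, at 0 in both heat libraries, passed it only through its control values. The calls of LIL3:2 and OHP1 cannot be read as a result. Of 3 counted thylakoid curvature genes 2 were lower in WT heat, and 1 lower and 1 higher in miR164OE heat. CURT1A had 6.02, 3.28, 0 and 4.73 FPKM, CURT1B 19.3, 7.55, 17.4 and 6.16 FPKM and CURT1C 23.3, 8.62, 0 and 0 FPKM. No gene named in this paragraph had over 12.4 estimated fragments in any library.

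None of the 5 regulators listed with these genes was 2-fold lower after heat, on few fragments each. Of all rows 21.7% were lower in WT heat and 17.2% in miR164OE heat. GLK1 and GLK2, transcription factors that promote antenna and chlorophyll genes, had 1.93, 1.501, 0 and 1.45 FPKM and 2.31, 3.39, 0 and 5.92 FPKM. GNC, a GATA factor that promotes greening, had 0, 10.9, 0 and 5.62 FPKM, and its relative GNL 4.198, 3.12, 0 and 2.12 FPKM. Among the 5 regulators, 2 were at least 2-fold higher in WT heat, against 29.8% of all rows, and 4 in miR164OE heat, against 32.5%. GNC, at 0 in both controls, passed the row minimum only through its heat values. GLK1 and GNL differed by -0.23 and -0.33 in WT heat. GLK1, GLK2 and GNL were at 0 in miR164OE control, at most 3.45 estimated fragments in WT control. Of 4 counted senescence genes, 1 was lower and 1 higher in WT heat, and 1 lower and 2 higher in miR164OE heat. SEN1, which marks darkness and sugar starvation as well as senescence, had 92.4, 6.61, 46.9 and 0 FPKM, ORE1, a target of miR164, had 2.73, 11.2, 0 and 1.48 FPKM, and SAG12, which defines late leaf senescence, was at 0 throughout. Mesophyll markers summed to 340.3, 185, 272 and 240.5 FPKM, and RCA, rubisco activase, had 178, 55.2, 138 and 93.7 FPKM. Of these 5 markers 2 were at least 2-fold lower in WT heat and none in miR164OE heat, and their part in the antenna and photosystem values was not tested.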

How the data were processed

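Per the labels' protocols, Trizol was used to extract seedling RNA, and libraries came from a SureSelect kit of Agilent that keeps strand. FPKM values were deposited by the authors in a single table with 1 column for each of 4 libraries. The submitters' processing notes name bcl2fastq 2.1.7, TopHat, Cufflinks and the build TAIR10, with other versions, strand option and gene models not given in the sources used here.

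Row codes were matched to the RefSeq annotation of TAIR10.1, with 32538 of 32823 rows matched and 22475 of 22477 nuclear rows with a locus of their own at the same start and end; all 43 genes lay inside their locus. Differences of log2(FPKM + 1), sums and ratios were computed with Python 3.11.15, pandas 2.3.3 and numpy 2.4.6, over rows averaging 1 FPKM or more and with 2-fold as the call. The arithmetic of the calls was checked on simulated data much deeper than these libraries, which says nothing of their counting error. Depth is not stated. The FPKM worth of 1 fragment was estimated as the mode of FPKM times exon length over nuclear rows of 800 to 2500 bases without an overlapping gene and under 6 FPKM, and fragments are FPKM times exon length over that worth, which is approximate. No interval was computed. Coding sequences were aligned with Biopython 1.88.

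The rule for named genes took all 43 genes, opposite-strand rows of them, and up to 3 genes of each other list with the largest heat difference, and GLK1, SAG12, ALB3 and the marker genes were named for their role after their values were seen. The genes and the 12 lists, 82 genes in all, were chosen with earlier results of these data known. Alternatives were pseudocounts of 0.1 and 5, other row minimums, 2 rescalings, rows without an opposite gene and summed copies.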

Additional observations from a re-analysis of the deposited data

Results flagged for a closer look

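For 6 genes the heat difference had opposite signs in the genotypes and differed between them by at least 1 on the log2(FPKM + 1) scale. With 1 library per group this difference was not tested. Expressed as the heat difference in miR164OE minus that in WT, it was 2.96 for PSAH2, 2.68 for PSAL, 2.59 for PSBS, 1.78 for PSAK, 1.31 for PSBQ2 and -1.47 for PSBX. The single differences were -2.58 in WT and 0.39 in miR164OE for PSAH2, -2.40 and 0.28 for PSAL, and -2.30 and 0.29 for PSBS. They were -1.70 and 0.08 for PSAK, -1.07 and 0.24 for PSBQ2, and 1.21 and -0.26 for PSBX. Under both rescalings of nuclear rows the miR164OE difference of PSBX turned positive, to 0.66 with a common sum and 0.047 without the 100 highest rows, so its signs were then the same, while the other 5 genes kept opposite signs. In those 5 genes WT heat was the lowest library, and in PSBX WT control was. These lowest values are worth about 1.19 fragments for PSAH2, 3.91 for PSAL, 1.42 for PSBS, 2.98 for PSAK, 4.43 for PSBQ2 and 3.50 for PSBX. The part of this low depth in the differences was not tested.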

How the results depend on the processing

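Over the counts, medians and class sums of the 4 comparisons, 134 values under an alternative stayed within 1.5 times the reported one (for medians, within that shift on the log2 scale) and 31 did not. Scaling nuclear rows to a common sum moved the median difference to -1.002 for WT and -0.016 for miR164OE. The sum ratios became 0.383 (antenna), 0.555 (photosystem I) and 0.781 (photosystem II) in WT, and 0.703, 1.32 and 1.28 in miR164OE. In miR164OE 2 genes were then lower and 6 higher, against 7.88% and 52.6% of all rows. Scaling without the 100 highest rows moved none of these beyond 1.5 times. With a pseudocount of 5, 0 genes were higher in either heat comparison and 0 lower in miR164OE heat against WT heat, where a pseudocount of 0.1 gave 2. A mean of at least 5 FPKM gave 1 higher in WT heat, 0 higher in miR164OE heat and 0 lower in miR164OE heat against WT heat. Without a row minimum, 5 genes were lower in miR164OE control than in WT control. Over the 27 genes with no gene on the opposite strand, 20 were lower in WT heat and 11 in miR164OE heat. With copies of a subunit summed, 12 were lower and 0 higher in miR164OE heat, and 1 higher in miR164OE control.

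An alternative added after the values were seen took the 24 genes with at least 40 estimated fragments. It gave 18 lower and 1 higher in WT heat, 12 lower and 0 higher in miR164OE heat, 1 higher between the controls, 2 higher and 0 lower between the heat libraries, and 6 with a 2-fold difference of heat responses. Fewer genes enter these counts by construction. Of 95 single-gene differences no called one turned sign, an outcome that was fixed in advance. A pseudocount keeps the sign, and both rescalings shift libraries against each other by less than the 2-fold of a call. Of the uncalled ones 3 in WT heat and 13 in miR164OE heat turned from below to above 0 with the common sum, and 4 in miR164OE heat without the 100 highest rows (PSAD2, PSAG, PSBX and PSBY). In size 77 moved by over 1.5 times with the common sum, 7 with a pseudocount of 0.1 and 16 with 5. No replicate could be left out with 1 library per group. No paired analysis was possible because each group has 1 library.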

Other observations

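PSAH2 and CURT1C are neighbours on chromosome 1, and the window of 250 bases before PSAH2 overlaps CURT1C. CURT1C was listed at 23.3, 8.62, 0 and 0 FPKM and PSAH2 at 22.7, 2.97, 11.0 and 14.7 FPKM. Both were lower in miR164OE control than in WT control, and CURT1C stayed at 0 in miR164OE heat whereas PSAH2 did not.

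Within pairs of copies the shares shifted between libraries in some cases. PSBQ1 made up 20.3%, 31.7%, 54.1% and 19.4% of the PSBQ sum. PSBO1 made up 84.7%, 77.1%, 75.0% and 81.2% of the PSBO sum, and LHCB4.3 0%, 19.7%, 0% and 11.3% of the LHCB4 sum. Exon length had a Spearman's rho of 0.06 with the WT heat difference and -0.28 with the miR164OE heat difference across the 41 counted genes, a description only.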
